A study of Canis lupus familiaris with 26 samples.

Results

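Firocoxib-treated and control dogs were compared on day 10 after ovulation, in all 3 treated and all 3 control samples that the labels assign to that day, out of 26 samples in the series. Each sample was poly-A selected RNA from corpus luteum (CL) tissue of a single bitch, dissected from the ovary after surgery on day 10. Treated bitches (replicates 1, 4 and 5) had received 10 mg/kg firocoxib (Previcox) by mouth every day from ovulation, counted as day 0. The bitches were of mixed breed and different ages and were assigned to the groups at random. Control bitches (replicates 2, 3 and 4) were given a placebo according to the treatment protocol, whereas the design text calls the control animals untreated. The other 20 samples came from days 5, 20 and 30 and were used only to place the day 10 values. Whole CL tissue holds several cell types, so that fewer cells of a type and less RNA per cell cannot be told apart in these values.

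The CL is a transient gland that forms from the ruptured follicle and secretes progesterone, and in the dog it is the only source of the progesterone that carries pregnancy. Its cells build progesterone from cholesterol, which they take up from lipoproteins in the blood or make from acetyl-CoA through the mevalonate pathway. Firocoxib is a selective inhibitor of cyclooxygenase 2 (COX2, the product of PTGS2), which converts arachidonic acid to the common precursor of prostaglandins such as PGE2, a luteotropic factor of the early canine CL. The day 10 contrast therefore addressed how the developing gland, which is still largely independent of pituitary hormones, was affected at the transcript level when prostaglandin synthesis was inhibited.

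Between 12831896 and 21405040 reads were counted on genes in the 6 samples. Between 14879 and 15601 genes had reads, and the share of reads in the top 10 genes ran from 16.6% to 32.3%, the latter in treated 4. One library stood apart: the Pearson correlation of log2 CPM (CPM, reads scaled to a common library size with TMM factors) of treated 1 with each of the other 5 samples was 0.819 to 0.877, while the 10 pairs among the other 5 samples, treated and control alike, correlated at 0.947 to 0.969. Treated 1 was the highest sample by at least 2-fold for 833 genes and the lowest by at least 2-fold for 2744 genes, compared with 45 to 73 and 43 to 79 genes in each of the other samples. Among the genes with a symbol, GPX3, which encodes an extracellular glutathione peroxidase, was the one by which treated 1 exceeded all other samples most, with 2086 CPM against 184 to 317 CPM. The number of members of a list at an unadjusted P under 0.05 is therefore given with and without treated 1 where it differed.

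**Figure D1:**
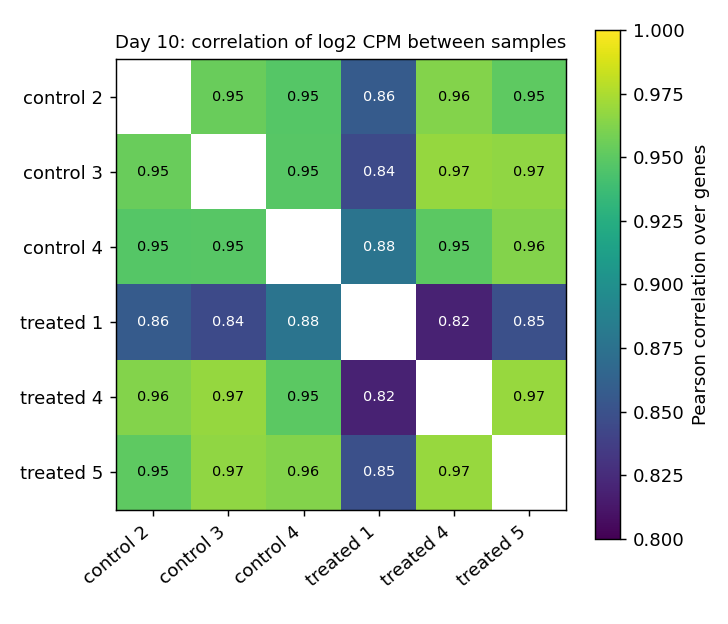
Pearson correlation of log2 CPM over the genes tested on day 10, for each pair of the 6 samples (3 control and 3 treated). The row and column of treated 1 hold the 5 lowest values (0.819 to 0.877), and all other pairs lie between 0.947 and 0.969.

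The tissue label was checked with cell type markers. Of 10 markers of luteal steroidogenic cells, only FDX1, LHCGR, PRLR and INHA could be matched to a symbol, and their summed level was 1279 to 1789 CPM in controls and 1774 to 2098 CPM in treated samples. Markers of endothelial cells (6 of 10 matched) summed to 656 to 1177 CPM in controls and 648 to 1663 CPM in treated samples, those of fibroblasts (8 of 8) to 6123 to 6913 and 3918 to 8945 CPM, those of smooth muscle cells and pericytes (6 of 10) to 347 to 502 and 268 to 466 CPM, and those of macrophages and monocytes (5 of 11) to 76.8 to 133 and 76.3 to 158 CPM. In all of these lists the groups overlapped, and the highest endothelial and the lowest fibroblast sum were those of treated 1. Oocyte markers (8 of 11, among them the zona pellucida genes ZP2, ZP3 and ZP4) were present in luteal tissue as well, with 108, 115 and 6.68 CPM in controls 2, 3 and 4 and 4.06, 60.4 and 43.8 CPM in treated 1, 4 and 5. They were thus low in control 4 and treated 1, the groups overlapped, and 0 of the 8 genes had an unadjusted P under 0.05, although all 8 had a lower fitted level in the treated group (median log2 fold change −1.17, −0.60 without treated 1). Markers of granulosa cells (4 of 6) summed to 1474 to 2214 CPM in controls and 1083 to 2206 CPM in treated samples, and those of epithelium (2 of 9), adipocytes (3 of 6) and erythroid cells (1 of 7) to 39.4 CPM or less. No neutrophil or B cell marker had a symbol, and of the T and NK cell markers only GZMB and CD3G could be followed.

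Of 19856 genes, 13416 averaged 10 or more reads in either group and were tested with edgeR. No gene passed both thresholds for a differentially expressed gene (P under 0.01 and FDR under 0.1; 0% of genes tested), and the lowest FDR was 0.99998. The same count was 0 with DESeq2 and with limma voom. At an unadjusted P under 0.05 there were 121 genes, of which 50 (0.373%) were higher and 71 (0.529%) lower in treated samples, while DESeq2 gave 164 and limma voom 116. Complete separation of the groups was seen for 317 genes (2.36%) with all treated samples above all controls and for 354 (2.64%) with all treated samples below, and this split was 404 to 290 with RLE factors, another way of scaling libraries, in place of TMM. If no gene differed, a share of 0.05 of genes would be expected at an unadjusted P under 0.05, more than was found. The same share would be expected to separate completely in each direction, again more than was found. The median log2 fold change (treated over control) of all genes tested was 0.02.

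Without treated 1, the number of genes at an unadjusted P under 0.05 was 651 instead of 121, with 413 (3.08%) higher and 238 (1.77%) lower in treated samples, and still none passed both thresholds (0% of 13427 genes, lowest FDR 0.861). The 651 were also no more than a share of 0.05 of the genes tested. Of the 121 genes, 78 kept a P under 0.05, and they made up 11.98% of the 651. Omission of treated 4 gave 271 genes, and omission of any of the other 4 samples gave 92 to 130. The genes named below are therefore described by their value in each sample, in the order controls 2, 3 and 4 and treated 1, 4 and 5, and the log2 fold change with its 95% interval comes from the fit of edgeR's quasi-likelihood model to all genes. An interval that leaves out 0 corresponds to an unadjusted P under 0.05, and every gene had an FDR of 0.99998 or more.

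Of 16 lists of functionally related genes, that of cholesterol synthesis and supply had the highest median log2 fold change on day 10. Of 34 symbols on this list, 14 could be matched and tested, and 13 of them were higher in the treated group, with a median log2 fold change of 0.82 compared with 0.02 over all genes. At an unadjusted P under 0.05, 4 members were higher (NSDHL, SQLE, ACAT2 and FDFT1) and 0 were lower, where 0.373% of all genes were higher at that level. For 3 members (NSDHL, NPC1 and INSIG1) all treated samples lay above all controls, which was the case for 2.36% of all genes. The median was 0.61 without treated 1, when 6 of the 14 were higher at a P under 0.05 and 3.08% of all genes were. All list members carry a symbol because the study lists them for some contrast of the series, and the list is given as a description.

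NSDHL, which removes methyl groups from sterol intermediates, was measured at 53.2, 40.6 and 35.6 CPM in controls and 138, 93.7 and 66.6 CPM in treated samples (log2 fold change 1.21, SE 0.38, 95% interval 0.36 to 2.06; 0.89 without treated 1, with a P under 0.05). SQLE, which encodes squalene epoxidase, was measured at 373, 211 and 167 CPM in controls and 679, 630.4 and 366 CPM in treated samples (log2 fold change 1.16, SE 0.42, 95% interval 0.22 to 2.10). The groups separated for NSDHL, but for SQLE treated 5 was just below control 2, which was the highest control for most of the pathway. The same order, with control 2 above the other controls and treated 5 the lowest treated sample, was seen for ACAT2 (acetoacetyl-CoA formation, log2 fold change 1.03, 95% interval 0.14 to 1.92), with 125, 63.97 and 66.4 CPM in controls and 201, 200.001 and 121 CPM in treated samples. FDFT1, which forms squalene, had 377, 191 and 182 CPM in controls and 745, 497 and 353 CPM in treated samples (log2 fold change 1.09, 95% interval 0.12 to 2.06), again with treated 5 between control 2 and the other controls.

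Several other enzymes were highest in treated 1. DHCR7, which catalyses the last step to cholesterol, had 383, 168 and 114 CPM in treated 1, 4 and 5 against 150.02, 91.03 and 63.1 CPM in controls. Likewise FDPS had 639 CPM and the sterol reductase TM7SF2 595 CPM in treated 1, against at most 308 and 194 CPM in the other treated samples. The log2 fold changes of these 3 genes, 1.13, 1.06 and 1.03, were 0.46, 0.46 and 0.11 without treated 1.

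CYP51A1, a sterol demethylase, and SOAT1, which esterifies cholesterol for storage, were lowest in treated 1 and highest in treated 4 and 5, and SC5D, a sterol desaturase, was likewise lowest in treated 1. SOAT1, for example, had 238, 308 and 253 CPM in controls and 60.8, 564 and 398 CPM in treated samples, and its log2 fold change was 0.36 with treated 1 and 0.84, with a P under 0.05, without it. Of the genes that act on supply and its control, NPC1, which releases cholesterol from lysosomes, had 61.3, 65.9 and 76.9 CPM in controls and 105, 92.04 and 109.5 CPM in treated samples (log2 fold change 0.59, 95% interval −0.10 to 1.27). INSIG1, a sterol-responsive brake on the pathway, had 427, 307 and 443 CPM in controls and 507, 788 and 504 CPM in treated samples (log2 fold change 0.61, 95% interval −0.16 to 1.39). STARD4, a carrier of cholesterol within the cell, had a log2 fold change of 0.56. Only ABCA1, the exporter of cholesterol, was lower in the treated group, with 44.2, 55.7 and 84.4 CPM in controls and 12.4, 47.6 and 71.2 CPM in treated samples (log2 fold change −0.49, −0.05 without treated 1). Taking the 14 genes sample by sample, treated 4 was above the highest control for 12, treated 1 for 9 and treated 5 for 5, whereas treated 1 was below the lowest control for 4 and the other treated samples for 0.

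**Figure D2:**
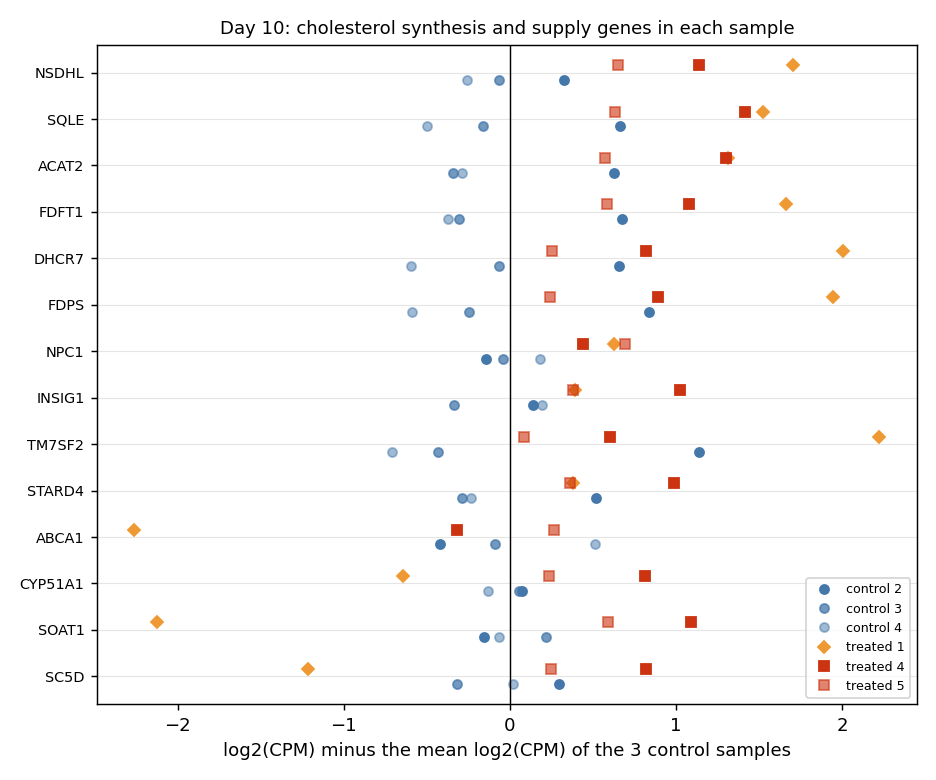
Level of the 14 cholesterol synthesis and supply genes in each day 10 sample, as log2(CPM) minus the mean log2(CPM) of the 3 controls, ordered by P from the top. Circles are controls, the diamond is treated 1 and squares are treated 4 and 5. The treated samples lie to the right of all controls for NSDHL, and treated 1 lies far to the left for ABCA1, SOAT1 and SC5D.

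Related genes outside the list were ACLY and AACS. ACLY encodes ATP citrate lyase and supplies cytosolic acetyl-CoA for both sterols and fatty acids. It had 698, 381 and 446 CPM in controls and 1225, 1129 and 1145 CPM in treated samples, so that the treated samples were nearly equal and all above the highest control (log2 fold change 1.20, SE 0.35, 95% interval 0.42 to 1.98; 1.16 without treated 1). AACS, which makes acetoacetyl-CoA for the same pathways, had 60.3, 48.5 and 36.9 CPM in controls and 94.7, 80.3 and 81.6 CPM in treated samples (log2 fold change 0.82, 95% interval 0.08 to 1.55; 0.73 without treated 1). The genes of steroid synthesis and inactivation did not show a common shift. Of 9 members tested, 6 were higher and 3 lower, none at a P under 0.05, with a median log2 fold change of 0.12. FDX1, the electron donor of the enzyme that cleaves the cholesterol side chain, was the only 1 of the 9 whose groups separated. Of all genes, 2.36% separated upward. FDX1 had 819, 891 and 1180.1 CPM in controls and 1313, 1429.8 and 1272 CPM in treated samples (log2 fold change 0.47, SE 0.32, 95% interval −0.24 to 1.18). HSD17B7, which acts in both estradiol and cholesterol synthesis, had 38.9, 17.4 and 21.04 CPM in controls and 57.2, 34.9 and 35.3 CPM in treated samples (log2 fold change 0.72, 95% interval −0.22 to 1.66). CYP19A1, the aromatase that forms estrogens, had 657, 338 and 335 CPM in controls and 444, 684 and 313 CPM in treated samples, which overlapped entirely (log2 fold change 0.12, 95% interval −0.84 to 1.07). STAR, CYP11A1 and HSD3B2 had no symbol in the sources used and were not analysed here by name.

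Prostaglandin pathway genes, the target of the drug, were examined next. PTGS2 itself had 105, 55.2 and 147 CPM in controls and 11.1, 147 and 73.1 CPM in treated samples. Treated 1 was far below all others, treated 4 was level with the highest control, and the groups overlapped (log2 fold change −0.41, 95% interval −2.09 to 1.27; 0.09 without treated 1). The transcript level of PTGS2 does not report on the activity of its enzyme, which firocoxib blocks directly. PTGES, which forms PGE2, had 69.5, 32.8 and 71.7 CPM in controls and 60.2, 38.1 and 31.9 CPM in treated samples (log2 fold change −0.42, 95% interval −1.36 to 0.52). Here treated 4 and 5 lay with control 3 at the low end and treated 1 with the other controls, and the log2 fold change was −0.73 without treated 1, with a P above 0.05.

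Among the terminal synthases, PTGDS (PGD2 synthesis) had 101, 56.2 and 27.6 CPM in controls and 24.1, 50.9 and 20.1 CPM in treated samples (log2 fold change −0.96, 95% interval −2.18 to 0.26), and TBXAS1 (thromboxane A2 synthesis) had 11.9, 16.1 and 8.16 CPM in controls and 5.61, 8.98 and 7.34 CPM in treated samples (log2 fold change −0.72, 95% interval −1.66 to 0.21). In both genes treated 1 and 5 were just below the lowest control and treated 4 was within the range of the controls. PTGIS, which forms prostacyclin, had 96.2, 346 and 337 CPM in controls and 226, 141 and 520.1 CPM in treated samples (log2 fold change 0.19), and AKR1B1, which can form PGF2α, had 2029, 4700.0 and 3264 CPM in controls and 5488, 1452 and 6124 CPM in treated samples (log2 fold change 0.39). Their levels varied between dogs more than between groups. HPGDS, a further PGD2 synthase, was low, with 0.873, 0.473 and 0.329 CPM in controls and 0.0572, 1.91 and 1.55 CPM in treated samples, and its log2 fold change was 1.08 with and 1.64, with a P under 0.05, without treated 1. Over the whole list, 3 of 7 synthesis genes were higher and 4 lower, with 0 at a P under 0.05 in either direction and a median log2 fold change of −0.41 (0.09 without treated 1).

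HPGD, which inactivates prostaglandins, had 13.6, 6.79 and 7.23 CPM in controls and 0.343, 10.4 and 6.47 CPM in treated samples. Its log2 fold change of −0.68 rested on treated 1, without which it was −0.13. SLCO2A1, the prostaglandin uptake carrier, was also highest in treated 1, with 45.97 CPM against 11.6 to 17.4 CPM in the other treated samples and 12.1, 13.1 and 13.04 CPM in controls (log2 fold change 0.97, 0.19 without treated 1). The 5 receptors tested were all slightly lower in the treated group, with log2 fold changes from −0.51 to −0.14 and none at a P under 0.05, but 2 of the 5 were higher without treated 1. PTGER2, a PGE2 receptor, was near 1 CPM throughout (0.873, 1.93 and 0.603 CPM in controls and 0.572, 0.861 and 1.08 CPM in treated samples). PTGFR, the receptor of PGF2α, had 718, 812 and 1023 CPM in controls and 263, 959 and 989.8 CPM in treated samples, so that only treated 1 was outside the range of the controls (log2 fold change −0.21, 0.19 without treated 1). PPARG, a nuclear receptor that binds prostaglandin metabolites, had 25.97, 11.8 and 8.33 CPM in controls and 6.35, 14.3 and 11.7 CPM in treated samples.

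Receptors for pituitary hormones were compared because the gland becomes dependent on prolactin and LH later. Of 14 hormone receptors and luteal transcription factors tested, 4 were higher and 10 lower, with 0 at a P under 0.05 and a median log2 fold change of −0.14. PRLR, the prolactin receptor, had 147, 239.5 and 161 CPM in controls and 113, 226 and 238 CPM in treated samples (log2 fold change 0.07, 95% interval −0.81 to 0.96). LHCGR, the LH receptor, had 36.96, 36.5 and 14.3 CPM in controls and 8.76, 33.9 and 22.96 CPM in treated samples (log2 fold change −0.42, 95% interval −1.66 to 0.82). In both genes treated 1 was the lowest sample and treated 4 and 5 lay among the controls. NR5A2, a nuclear receptor that drives steroidogenic genes, had 172, 200.3 and 170.3 CPM in controls and 76.3, 295 and 268 CPM in treated samples, and without treated 1 its log2 fold change was 0.63, with a P under 0.05. INHBB, a subunit of inhibin B and activins, was the other member at that level without treated 1, with a log2 fold change of −0.64 with and −1.26 without it, so that 1 of 15 members was then higher and 1 lower (3.08% and 1.77% of all genes). ESR1, FSHR and LEP had log2 fold changes of −0.63, −0.15 and 0.64, each with overlapping groups.

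**Figure D3:**
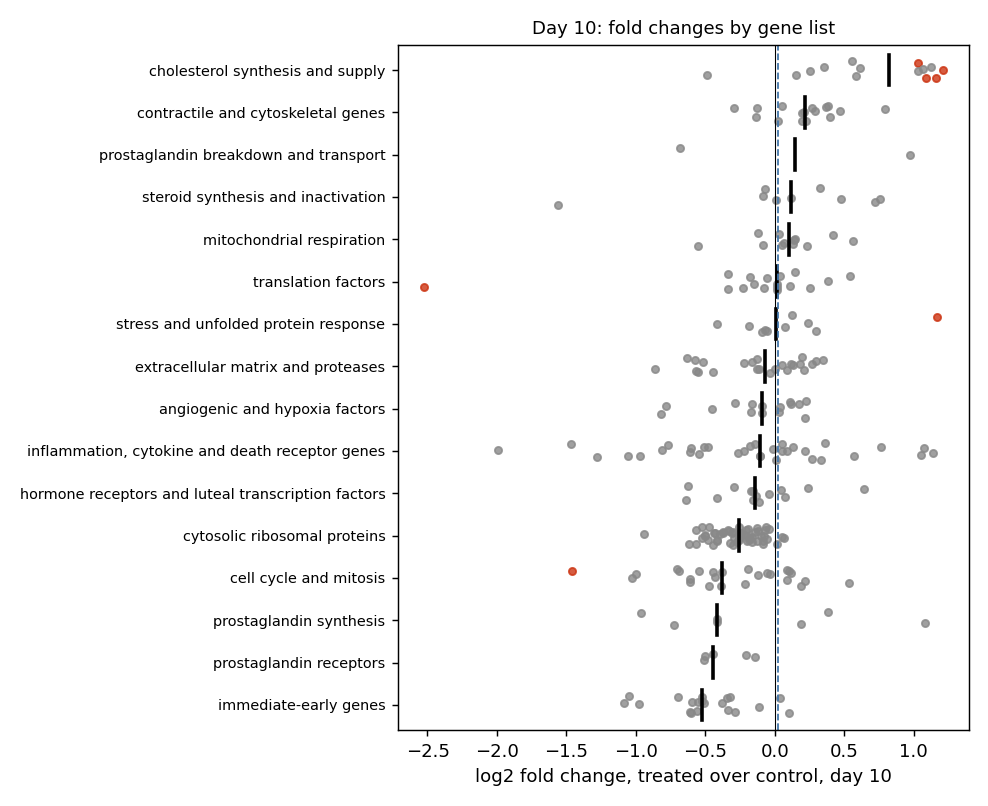
Log2 fold change of treated over control samples on day 10 for each gene tested of 16 lists, ordered by their median (black bars). Red points have an unadjusted P under 0.05 in edgeR's test and grey points do not, and the dashed line is the median of all genes tested (0.02). Cholesterol synthesis and supply has the highest median (0.82) and 4 red points, and immediate-early genes the lowest (−0.52) with none.

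Immediate-early genes, transcription factors such as FOS, EGR1 and NR4A1 that are induced within minutes of a stimulus, were lower in the treated group for 18 of 20 members, none of them at a P under 0.05 (median log2 fold change −0.52, and −0.27 without treated 1). Without treated 1, 2 of the 20 (JUNB and IER2) were lower at that level, compared with 1.77% of all genes. FOS had 124, 768 and 797 CPM in controls and 159, 481 and 472 CPM in treated samples, and EGR1 had 112, 963 and 601 CPM in controls and 98.7, 519 and 523 CPM in treated samples. Control 2 and treated 1 were thus both several-fold below the remaining samples, so that the spread within each group was larger than the difference between them. NR4A1, an orphan nuclear receptor, followed the same order with 10.6, 42.6 and 61.1 CPM in controls and 8.82, 25.9 and 23.4 CPM in treated samples (log2 fold change −0.98, 95% interval −2.40 to 0.45).

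Of the study's qPCR candidate genes, most of them in the lists below or above, 5 of 16 were higher and 11 lower, with a median of −0.13 and 0 at a P under 0.05. Inflammatory, cytokine and death receptor genes were divided, with 14 of 33 higher and 19 lower, 0 at a P under 0.05 and a median log2 fold change of −0.11. Without treated 1, 3 members were higher at that level (CCL5, TLR2 and IL1A, compared with 3.08% of all genes) and 0 were lower. CXCL8, a neutrophil attractant, had 29.5, 22.98 and 155 CPM in controls and 1.49, 18.6 and 32.1 CPM in treated samples, and its log2 fold change of −1.99 (95% interval −4.27 to 0.28) rested on control 4 and treated 1. CXCL10, a chemokine for T cells, had 2.47, 1.33 and 1.81 CPM in controls and 0.343, 1.35 and 0.604 CPM in treated samples, with treated 4 just above the lowest control. FASLG, the ligand of the death receptor FAS, was the only 1 of the 33 with separated groups, where 2.36% of all genes separated upward. It had 0.437, 0.988 and 1.04 CPM in controls and 1.72, 1.84 and 1.94 CPM in treated samples (log2 fold change 1.14, SE 0.58, 95% interval −0.18 to 2.45). FAS itself had 7.71, 9.92 and 6.08 CPM in controls and 14.3, 4.73 and 5.52 CPM in treated samples, with a log2 fold change of 0.05 that was −0.63 without treated 1. Values of NFKB1 (0.09), NFKBIA (−0.11), ICAM1 (−0.14), TGFBR1 (−0.11), THBS1 (−0.17), IDO1 (−0.01) and NODAL (−1.47), given as log2 fold changes, had 95% intervals that included 0. THBS1 ranged from 115 to 357 CPM in controls and from 30.9 to 298 CPM in treated samples.

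GZMB, a protease of cytotoxic T and NK cells, had 1.31, 1.03 and 1.81 CPM in controls and 3.09, 1.91 and 39.8 CPM in treated samples. The log2 fold change of 3.43 (SE 1.08, 95% interval 0.996 to 5.87) rested on treated 5, although treated 1 and 4 were also above the highest control by small margins. CD3G, a subunit of the T cell receptor complex, was at most 1.42 CPM, in treated 5, and had no reads in treated 1. DESeq2 gave GZMB no P because its cutoff for single extreme counts applied. The part of T or NK cells in this value was not tested.

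Cell cycle and mitosis genes were lower in the treated group for 18 of 25 members, with a median log2 fold change of −0.38 (−0.43 without treated 1). For 6 of the 25 all treated samples lay below all controls (2.64% of all genes), and for 1 (MCM3) above (2.36% of all genes). CCNA2, the cyclin of S phase and mitotic entry, was the only member at a P under 0.05, where 0.529% of all genes were lower at that level. Without treated 1, 22 of the 25 were lower, 4 of them at a P under 0.05 (CCNA2, TYMS, CDC20 and CDKN1A), where 1.77% of all genes were. Of these 4, CDKN1A encodes an inhibitor of the cell cycle rather than a driver of it. CCNA2 had 6.18, 5.54 and 6.96 CPM in controls and 1.37, 2.09 and 3.28 CPM in treated samples (log2 fold change −1.46, SE 0.49, 95% interval −2.56 to −0.36). BUB1, a kinase of the spindle checkpoint, had 5.46, 6.83 and 6.25 CPM in controls and 0.973, 2.77 and 5.31 CPM in treated samples (log2 fold change −1.03, 95% interval −2.39 to 0.33), with treated 5 only just below the controls. CCNE2, CDK2, CCND2 and TYMS also separated the groups, with log2 fold changes of −1.001, −0.54, −0.44 and −0.38. CENPA, which marks the centromere and was not on the list, had 0.728, 1.12 and 1.31 CPM in controls and 0.343, 0.246 and 0.432 CPM in treated samples (log2 fold change −1.60, 95% interval −3.06 to −0.15). CDK1, PLK1 and AURKB had overlapping groups, with log2 fold changes of −0.61, −0.43 and −0.05. The day 10 controls took part in the selection of this list too, so the shares of all genes are not a neutral background.

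Among the genes with the smallest P was TMA7, which encodes a small translation machinery associated protein. It had 52.2, 21.8 and 9.15 CPM in controls and 5.72, 5.35 and 3.37 CPM in treated samples. All treated samples were below the lowest control, but the controls themselves spanned more than 5-fold, and treated and control samples were closest for control 4 and treated 1. The log2 fold change was −2.53 (SE 0.62, 95% interval −3.93 to −1.12; −2.68 without treated 1). Another was ENSCAFG00000011417, with 2.11, 2.15 and 2.30 CPM in controls and 5.04, 7.81 and 6.47 CPM in treated samples (log2 fold change 1.56, SE 0.44, 95% interval 0.56 to 2.55). It is annotated as similar to the gene of 60S ribosomal protein L4. Its values stayed under 10 CPM, and since it resembles RPL4 and small genes such as TMA7 have copies in mammalian genomes, their counts are uncertain where reads could be assigned to a copy. Both genes were named because the study lists them for this contrast, so that they are not independent evidence. The study used DESeq2 with the same thresholds, whereas DESeq2 called neither gene here (FDR 0.479 for TMA7 and 0.999 for ENSCAFG00000011417). The cause of this difference was not tested.

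Cytosolic ribosomal protein genes were lower in the treated group for 53 of 56 identifiers, with a median log2 fold change of −0.25 (−0.33 without treated 1) and 0 at a P under 0.05. RPL23 had 896, 610.01 and 597 CPM in controls and 331, 675 and 366 CPM in treated samples, so that treated 4 lay within the controls and treated 1 and 5 below them (log2 fold change −0.62, 95% interval −1.49 to 0.26). Translation factors, TMA7 among them, were divided, with 9 of 17 higher and a median of 0.02. TMA7 was the only member at a P under 0.05, where 0.529% of all genes were lower at that level. Without treated 1, 4 were higher. At a P under 0.05, 1 (EIF5B) was then higher and 1 (TMA7) lower, compared with 3.08% and 1.77% of all genes. Ribosomal protein genes have many near-identical copies, and the treatment of reads with several alignments is not given in the sources used here, so that their levels are uncertain.

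The remaining lists had medians between −0.09 and 0.22. Contractile and cytoskeletal genes were higher for 13 of 16 members (median 0.22, and 0.05 without treated 1), none at a P under 0.05, and ACTA2, which encodes smooth muscle actin, had 80.97, 23.3 and 43.7 CPM in controls and 114, 53.9 and 26.2 CPM in treated samples. MYO1C, a motor protein of the cell membrane, separated the groups with 82.9, 84.97 and 99.1 CPM in controls and 236, 106 and 120.05 CPM in treated samples (log2 fold change 0.79, 95% interval −0.07 to 1.66). Mitochondrial respiration genes were higher for 9 of 12 members, a count that was 2 without treated 1, and their median was 0.10 with and −0.24 without it. Extracellular matrix and protease genes had a median of −0.07 and 0 members at a P under 0.05, or 1 (MMP11, lower) without treated 1, with DCN (decorin) at 749, 759 and 731 CPM in controls and 278, 659 and 626 CPM in treated samples. Angiogenic and hypoxia factors had a median of −0.09, with ANGPT2, which destabilises vessels, at 14.5, 21.7 and 29.5 CPM in controls and 8.07, 16.7 and 12.5 CPM in treated samples (log2 fold change −0.82, 95% interval −1.78 to 0.14). VWF, an endothelial marker, had 772 CPM in treated 1 and 124 to 301 CPM in the other samples, and its log2 fold change of 0.85 was −0.11 without that sample. In the stress list, SESN2, a gene induced by amino acid and oxidative stress, had 27.1, 22.9 and 20.4 CPM in controls and 87.2, 39.6 and 30.9 CPM in treated samples (log2 fold change 1.16, 95% interval 0.17 to 2.16; 0.58 without treated 1).

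The other genes with separated groups and the smallest P came from several functions. SHISA7, which encodes a membrane protein described at neuronal receptors, had 2.40, 2.19 and 2.63 CPM in controls and 5.38, 11.99 and 6.13 CPM in treated samples (log2 fold change 1.70, 95% interval 0.61 to 2.78). FAM237B, a gene of little-known function, had 4.07, 14.9 and 9.64 CPM in controls and 27.4, 34.7 and 28.7 CPM in treated samples (log2 fold change 1.66, 95% interval 0.57 to 2.74). TNS1 (tensin 1, a focal adhesion protein) was tight in both groups, with 59.6, 68.6 and 56.9 CPM in controls and 121, 109 and 119.5 CPM in treated samples (log2 fold change 0.92, SE 0.30, 95% interval 0.24 to 1.59). HR, a nuclear corepressor, and FAT2, an atypical cadherin, were likewise higher in each treated sample than in any control, with log2 fold changes of 1.08 and 1.01. SLC7A4, a member of the cationic amino acid transporter family, had 5.67 CPM in treated 1 and at most 1.05 CPM in any other sample, and its log2 fold change of 2.25 was 0.87 without treated 1. GALNT16, a glycosyltransferase, had 10.5, 7.56 and 12.4 CPM in controls and 33.4, 14.9 and 17.3 CPM in treated samples.

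Among the genes that were lower in every treated sample, PVALB (parvalbumin, a calcium-binding protein) had 17.6, 26.2 and 31.1 CPM in controls and 10.5, 12.6 and 10.9 CPM in treated samples (log2 fold change −1.14, SE 0.36, 95% interval −1.96 to −0.32). IGFBP3, the main carrier of insulin-like growth factors, had 6.77, 23.5 and 8.77 CPM in controls and 5.04, 3.996 and 5.31 CPM in treated samples (log2 fold change −1.45, 95% interval −2.64 to −0.25). The treated samples were close together for both genes, and the controls were spread, most of all through control 3 for IGFBP3. GNG11, a G protein subunit, had 119.8, 80.2 and 173 CPM in controls and 61.6, 71.5 and 54.8 CPM in treated samples (log2 fold change −0.99, 95% interval −1.82 to −0.16), and APOH, a plasma apolipoprotein, had 12.1, 11.5 and 41.2 CPM in controls and 5.27, 10.4 and 3.06 CPM in treated samples (log2 fold change −1.79, 95% interval −3.24 to −0.34). SERPINA3, an acute phase protease inhibitor, had at most 6.53 CPM, in control 3, and a log2 fold change of −2.14. Its log2 fold change was 0.19 in a fit of all 26 samples with the replicate number as a block, although that number marks different bitches. PIM3, C6orf52, DMKN and FAM133B were below 4 CPM in every sample, with log2 fold changes of −1.995, −1.78, −1.83 and −2.52, and rest on few reads.

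**Figure D4:**
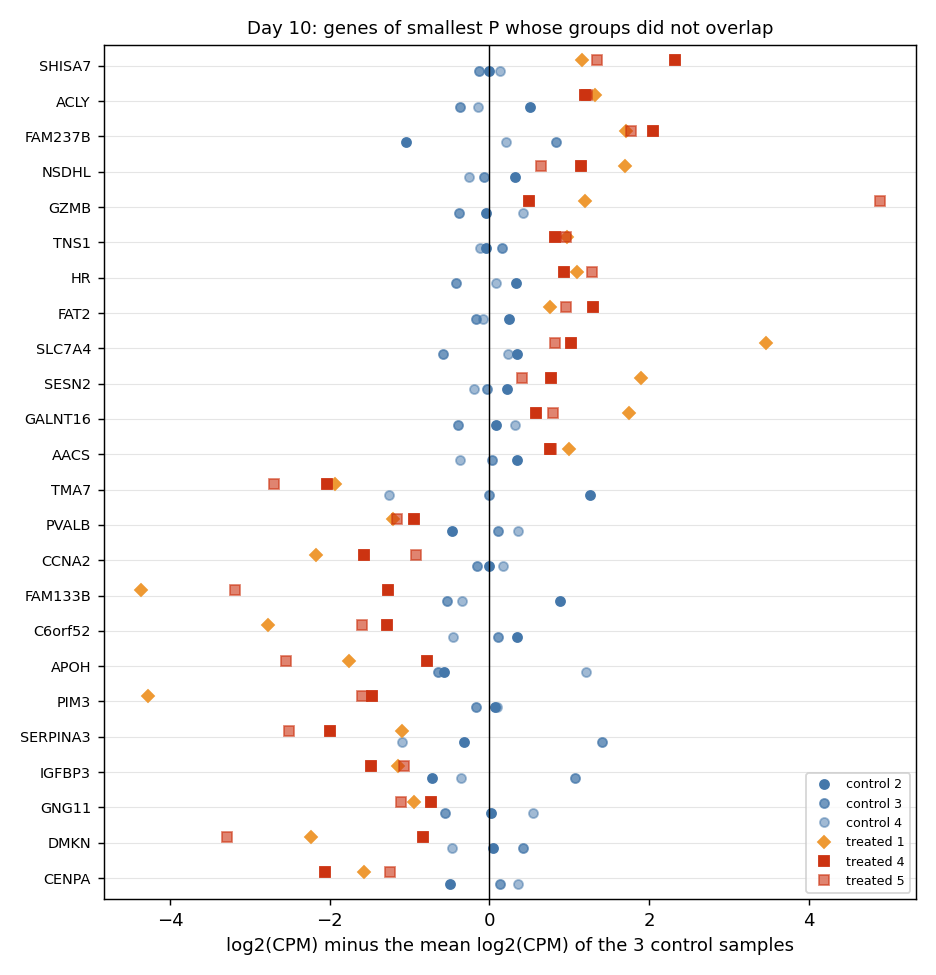
Level in each day 10 sample, as log2(CPM) minus the mean log2(CPM) of the 3 controls, of the 12 genes with a symbol that were higher (top, SHISA7 to AACS) and the 12 that were lower (bottom, TMA7 to CENPA) in all treated samples with the smallest P. Circles are controls, the diamond is treated 1 and squares are treated 4 and 5. The separation is set by construction, and single samples lead GZMB (treated 5) and SLC7A4 (treated 1).

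To see whether the day 10 pattern held at other times, the same contrast was fitted on days 5, 20 and 30, and the difference between day 10 and each other day was tested in a fit of all 26 samples. With edgeR no gene passed both thresholds for a difference from day 5, day 20 or day 30 (0% of 14171 genes each). The lowest FDR was 0.9998, 0.133 and 0.998, whereas an unadjusted P under 0.05 was found for 264, 1772 and 637 genes. With DESeq2 1, 589 and 1 genes passed, and with edgeR 10 genes passed against day 20 when treated 4 of day 10 was left out, among them the ribosomal protein genes RPL23, RPS27A, RPL11, RPL14 and RPS12. The single gene against days 5 and 30 was ENSCAFG00000011854, which has no symbol and is named after its values were seen, and which had 27 reads in control 4, 1 read in control 3 and 0 in the other day 10 samples.

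For the cholesterol genes the direction on day 10 was opposite to that on day 30. The median log2 fold change of the 14 members was 0.82 on day 10, compared with −0.17, −0.66 and −1.05 on days 5, 20 and 30, while the medians over all genes were 0.03, 0.11 and 0.05 on these 3 days. The difference in effect from day 30 was positive for 13 of 14 members and had a P under 0.05 for 8 of them (NSDHL, SQLE, ACAT2, FDFT1, DHCR7, FDPS, NPC1 and STARD4), where 2.78% of all genes were higher on day 10 and 1.71% lower at that level, but the FDR was 0.998 for each. Without treated 1 of day 10 it had a P under 0.05 for 7. From day 20 the difference was positive for 14 of 14, with 5 at a P under 0.05 (4.5% of all genes higher and 8% lower), and from day 5 it was positive for 14 of 14 with 0 at that level. SQLE had log2 fold changes of −0.25, 1.16, −1.36 and −1.73 on days 5, 10, 20 and 30, with a difference of 3.01 between days 10 and 30. ACLY had −0.03, 1.20, −1.20 and −1.48 on these days. The 3 tests of difference share the day 10 samples, and the genes of one pathway are not independent of each other. All members carry a symbol because the study lists them for some contrast of the series, including treatment on days 20 and 30. Genes that changed on those days were thus more likely to enter, and the shares of all genes are not a neutral background.

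**Figure D5:**
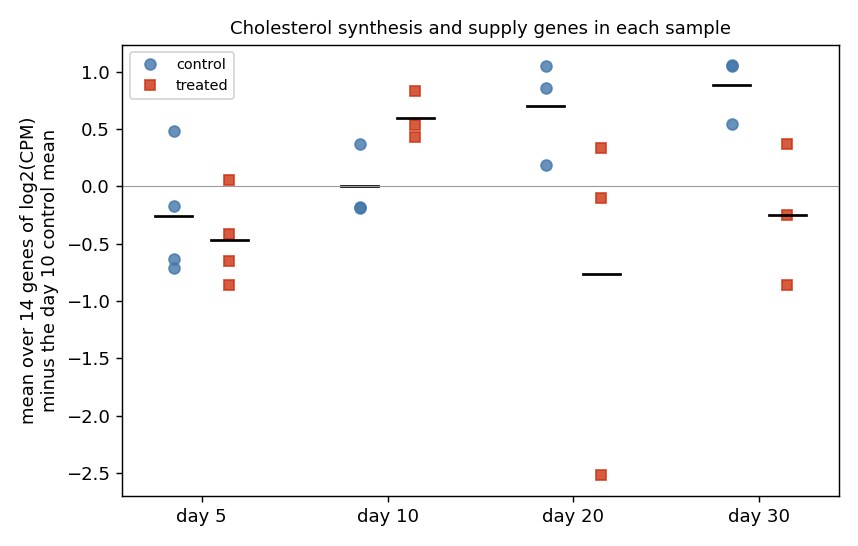
Mean over the 14 cholesterol synthesis and supply genes of log2(CPM), minus the mean of the day 10 controls, for each of the 26 samples, with controls as circles, treated samples as squares and group means as bars. On day 10 the treated samples lie at 0.43 to 0.83 and the controls at −0.19 to 0.37, whereas on day 30 the treated samples lie below all 3 controls. One treated sample of day 20 lies at −2.52.

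In levels rather than differences, the treated samples of day 10 had a mean over these 14 genes of 0.54, 0.83 and 0.43 on the log2 scale above the day 10 control mean (treated 1, 4 and 5), and the controls of days 20 and 30 lay between 0.19 and 1.06. Controls of day 5 ranged from −0.71 to 0.48. The treated samples of day 10 lay within the range of the older controls for this list, as did control 2 of day 10 (0.37) and the highest control of day 5. One treated sample of day 20, replicate 3, was at −2.52, and without it 4 members had a P under 0.05 for the difference between days 10 and 20.

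Immediate-early and ribosomal protein genes were compared between days 10 and 20 as well. The difference had a P under 0.05 for 19 of 20 immediate-early genes and 54 of 56 ribosomal protein identifiers, all lower on day 10 (8% of all genes), with medians of −3.39 and −1.75 and a lowest FDR of 0.133. Without treated replicate 3 of day 20 the counts were 14 and 51, and without treated 1 of day 10 they were 14 and 52. The own medians of the immediate-early list on days 5, 10, 20 and 30 were 0.80, −0.52, 2.99 and 0.78, so that day 10 was the only day of the 4 with a median below 0. The ribosomal list showed the same sequence, with 0.40, −0.25, 1.45 and 0.69. Oocyte markers, whose level varied between samples within groups, had a P under 0.05 for the difference from day 20 in 8 of 8 genes, also lower on day 10, where 8% of all genes were. The own medians of the oocyte list on days 5, 10, 20 and 30 were −0.18, −1.17, 8.68 and 2.24, so that most of this difference lay on day 20. All members of these lists carry a symbol because the study lists them for some contrast of the series, including treatment on day 20. Genes that changed on day 20 were thus more likely to enter, and the 8% is not a neutral background for these counts.

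Of the 50 genes that were higher on day 10 at an unadjusted P under 0.05, 49 were tested on day 5, where 38 had the same direction (51.4% of all genes were higher) and 7 a P under 0.05 in that direction (8.71% of all genes). On day 20, 18 of the 47 tested had the same direction (54.3% of all genes were higher), with 2 higher (11.7%) and 1 lower (5.33%) at a P under 0.05. On day 30, 9 of the 46 tested had the same direction (55.5% of all genes were higher), and 12 were lower at a P under 0.05 (2.62% of all genes). Of the 71 genes that were lower on day 10, 36 of the 64 tested were lower on day 5 (48.6% of all genes), 24 of 61 on day 20 (45.7%) and 18 of 48 on day 30 (44.5%). At a P under 0.05, 16 of these 61 were higher on day 20 (11.7% of all genes) and 5 of these 48 on day 30 (5.52%). Over all genes tested on both days, the Pearson correlation of the log2 fold change with that of day 10 was 0.32 for day 5 (13252 genes), −0.06 for day 20 (13235 genes) and −0.22 for day 30 (12961 genes). Genes are not independent replicates, and these values describe the fitted effects of few dogs.

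Whether treatment moved the tissue along its normal development was described with genes that differed between mature and early control CL, that is, between days 20 and 30 (6 controls) and day 5 (4 controls), none of which belong to day 10. Of the genes that rose with maturation by both thresholds, 916 were tested on day 10, of which 506 were higher, and the median log2 fold change was 0.05. Of those that fell, 1022 were tested, with a median of −0.02 and 495 higher. On a scale where the day 5 controls average 0% and the controls of days 20 and 30 average 100%, the rising genes placed controls 2, 3 and 4 of day 10 at 28.9%, 24.5% and 28.7% and treated 1, 4 and 5 at 24.3%, 25.6% and 37.7%. The falling genes placed them at 36.3%, 26.2% and 21.9% and at 40.7%, 39.0% and 32.8%. The groups overlapped on both scales. Without treated 1 the median of the falling genes was −0.18, while that of the rising genes was 0.07, so that the former had a lower fitted level in the treated group for all but 333 of 1024 genes. Over all genes, 7332 of 13427 were lower in that fit, with a median of −0.04.

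The spread between dogs was compared last. The median over genes of the standard deviation of log2 CPM was 0.67 in the treated group and 0.31 in controls, and 76.9% of genes had the larger standard deviation in the treated group. The difference of 0.37 was not significant (two-sided exact permutation test over all 20 assignments of the 6 samples, p = 0.4, where 0.1 is the smallest p that 3 against 3 allows). Without treated 1 it was −0.10 (exact permutation p = 0.2 over 10 assignments), with 0.21 in the 2 remaining treated samples and 0.31 in the 3 controls, values that are not directly comparable because the median standard deviation depends on the number of samples.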

How the data were processed

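The authors deposited raw read counts for each Ensembl gene, without normalization or filtering, from poly-A libraries made with the Illumina TruSeq kit. Alignment was with STAR to CanFam3.1, and counting with featureCounts. Versions, strandedness and the handling of reads with several alignments are not given in the sources used here. Day and group were taken from the labels, and the 10 mg/kg dose from the description of the treatment. Samples that the authors had removed as outliers were not analysed here. Analyses used R 4.3.3, edgeR 4.0.16, DESeq2 1.42.0 and limma 3.58.1. A gene was kept where its mean reached 10 reads in either group, counts were scaled with TMM factors, and log2 CPM used a prior count of 2. Treated and control samples were compared with edgeR's quasi-likelihood test, and P was adjusted by the Benjamini-Hochberg method for all genes kept. Differences between days used all 26 samples with 8 group means. Totals per sample limit precision: genes near 10 reads have imprecise fold changes, and a read count of PCR-amplified libraries covers counting error only. P-values measure the spread between dogs, 3 a group.

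Symbols came from the study's supplementary gene lists (4888 identifiers, 4355 with a symbol in the files), which hold genes that differed in some contrast of the series, so named members and lists are a selection. Controls of day 10 took part in these contrasts, so shares of all genes are not a neutral background for counts in any list. Some genes are not reported here and were left out of the lists. Members and lists were chosen with earlier results of these data known. Named genes were those past both thresholds, the 12 in each direction with a symbol, separated groups and the smallest P, prostaglandin, steroid and receptor genes, the study's qPCR candidates, TMA7 and ENSCAFG00000011417, the 3 genes of smallest P in each list, and the 5 of smallest P past both thresholds for a difference between days. A few others were named after their values were seen. Alternatives were limma voom, DESeq2 (its cutoffs on or off), other filters, RLE factors, an FDR under 0.05, a prior count of 0.5, all samples in 1 fit, the animal number as a block, and omission of each sample. Omission of a treated sample of day 20 was added after seeing the data. Tests were checked on simulated data, where recovery of known effects was required only at a low spread between samples. That check does not show which effects could be found at the spread of the day 10 samples.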

Additional observations from a re-analysis of the deposited data

How the results depend on the processing

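No gene passed both thresholds on day 10 under any alternative tried, and 0 had an FDR under 0.05. The number at an unadjusted P under 0.05 was 104 to 175 with the other tests, scalings and filters and 92 to 651 when 1 sample was left out, the highest without treated 1 (651) and treated 4 (271). The separated genes numbered 671 in both directions, and stayed within 1.5 times that under other scaling and filters. For a difference from days 5, 20 and 30, DESeq2 gave 1, 589 and 1 genes in place of 0. Leaving out 1 sample of day 10 gave 0 genes for days 5 and 30 and 0 to 10 for day 20, the 10 without treated 4, and the cause was not tested. Leaving out treated replicate 3 of day 20, chosen after seeing the data, gave 0. The difference in spread was −0.10 to 0.47 with 1 sample left out, negative without treated 1. The median of rising maturation genes was 0.081 with RLE factors and 0.0012 to 0.077 with 1 sample left out, and that of falling genes −0.18 to 0.028. The RLE median of all genes was 0.05, a shift of 0.03, and RLE factors changed the sign of no list's median.

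The groups of day 10 share 1 animal number, which marks different bitches, so a replicate block was fitted in all 26 samples only. It gave 94 genes at a P under 0.05 and 0 past both thresholds, and for the differences from days 5, 20 and 30 111, 1925 and 523 genes at a P under 0.05. With the block the log2 fold change had the other sign for SERPINA3 (0.19), MYC (0.093), MFAP5 (0.28), ESR1 (0.063), MYH11 (0.48), PTGS2 (0.16), ICAM1 (0.21), CYP19A1 (−0.20), THBS1 (0.44), PLIN4 (0.70), IDO1 (0.69), AKR1B1 (−0.26), EGR1 (0.16) and FOS (0.13). So did FAS (−0.12), SC5D (−0.043), SOAT1 (−0.15) and PLIN4 (0.21) with limma voom, PLIN4 (0.014) and IDO1 (0.026) with DESeq2, with and without its cutoffs, and PLIN4 (0.013) and IDO1 (0.026) with RLE factors.

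Leaving out 1 sample at a time turned the sign of 32 of 129 genes, those of the naming rule and others whose fold change is given, and their log2 fold change ranged from −2.36 to 0.025 for NODAL, −0.11 to 1.22 for VWF, −0.33 to 0.90 for ATP5D, −0.15 to 0.99 for PAX8, −0.81 to 0.10 for PPARG, −0.0015 to 0.45 for ATF4, −0.22 to 0.66 for CYC1, −0.76 to 0.19 for PTGER2, −0.67 to 0.065 for MYH11, −0.31 to 0.95 for ACTA2, −1.27 to 0.089 for PTGS2, −0.60 to 0.14 for MSR1, −0.47 to 0.25 for ICAM1, −0.54 to 0.17 for FSHR, −0.24 to 0.52 for CYP19A1, −0.35 to 0.31 for NFKBIA, −0.64 to 0.40 for THBS1, −0.11 to 0.34 for PRLR, −0.72 to 0.36 for TGFBR1, −1.87 to 0.42 for CD3G, −0.080 to 0.21 for EGLN1, −0.63 to 0.30 for FAS, −0.49 to 0.40 for PLIN4, −0.57 to 0.44 for IDO1, −0.48 to 0.16 for AURKB, −0.14 to 0.54 for CYP51A1, −1.04 to 0.097 for EGR1, −0.067 to 0.63 for NR5A2, −0.48 to 0.19 for PTGFR, −0.50 to 0.52 for PTGIS, −0.32 to 0.53 for SC5D and −0.20 to 0.84 for SOAT1. The remaining genes of the 129 kept their direction when 1 sample was left out. At 12831896 reads or more per sample, genes under 1 CPM rest on few reads, which limits the differences that could be seen in them.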
